A study of Mus musculus with 38 samples.

Results

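Tail skin of mice with vitiligo induction was compared between 6 libraries from mice given ABX (antibiotics, used in this series to deplete gut microbes) and 9 libraries from mice not given ABX. The 15 libraries were chosen by their labels alone, out of 38 in the series. The comparison asks how the skin of a mouse model of vitiligo differs when ABX is given. Microbes were not measured in these libraries. All libraries were made from total RNA of tail skin, enriched for messenger RNA, and the values are estimated read counts per gene. The group given induction and ABX is called vitiligo_ABX and the group given induction alone is called vitiligo. Both groups carry the induction, whose procedure the labels do not describe, and the labels name neither the drugs and doses in ABX nor the strain, age or sex of the mice. Libraries from uninduced mice without ABX (no_induction, 9 libraries) and with ABX (no_induction_ABX, 6 libraries) were used only to ask whether the ABX difference was the same without induction. The labels do not say whether libraries of a group came from separate mice or when they were made, so p-values measure the spread between libraries, and a cohort made at another time cannot be told apart from ABX.

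Vitiligo is a loss of melanocytes, the pigment cells of skin, driven by cytotoxic T cells and interferon gamma, with oxidative stress of the melanocyte as a proposed trigger. Melanocytes pass melanin in melanosomes to keratinocytes, and in mouse tail they reside in the hair follicle and in the epidermis itself. Beneath the dermis lies a layer of white adipocytes, which store triglyceride in lipid droplets and secrete hormones such as leptin and adiponectin.

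Libraries are named as the labels name them, and the libraries held 15.3 to 27.9 M counts each. Keratinocyte, fibroblast, endothelial, melanocyte and adipocyte markers were all present, as the label tail skin implies. Krt5, a basal keratin, ran from 2062 to 4645 CPM (counts per 1 M counts, on scaled library totals) over the 15 libraries, and Col1a1, a dermal collagen, from 820 to 3067 CPM. Some libraries stood apart. On the first principal component (35.4% of variance) the vitiligo_ABX libraries lay between 18.9 and 30.8 and the vitiligo libraries between -38.1 and 1.2, with Vitiligo000, Vitiligo260 and Vitiligo261 at the far end (-30.1, -31.2 and -38.1). The second component (20.1%) was led by Vitiligo001 at 45.3, whose Dcn, a fibroblast proteoglycan, was 717 CPM against at least 2124 CPM in the other vitiligo libraries. On this component VitiligoABX001 to VitiligoABX003 lay between 6.2 and 21.7 and VitiligoABX004 to VitiligoABX006 between -26.4 and -8.2. Transcripts of gut and pancreas summed to 52.0 and 63.6 CPM in Vitiligo000 and Vitiligo260, against 4.14 to 16.1 CPM in the other 13 libraries. The counts of gene lists are therefore followed by those left when Vitiligo000, Vitiligo260 and Vitiligo261 (the 3 outlying vitiligo libraries), VitiligoABX004 to VitiligoABX006, or the 7 libraries with over 10 CPM of gut and pancreas transcripts (the gut-transcript libraries) were dropped. The 10 CPM cut dropped Vitiligo001 (10.1 CPM) and Vitiligo047 (11.2 CPM) but kept VitiligoABX003 (9.3 CPM), and it left 3 vitiligo libraries.

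Of 14014 genes tested, 1837 were called (13.1%) at an adjusted p under 0.05 in edgeR's quasi-likelihood test. With ABX 709 genes were higher (5.06% of those tested) and 1128 were lower (8.05%), and 461 of the called genes differed by at least 2-fold, 129 higher and 332 lower. The median log2 difference of all genes tested was 0.02, where a log2 difference is vitiligo_ABX minus vitiligo and is given ± its standard error (SE) throughout. Genes were ranked by log2 difference among called genes with a group mean of at least 1 CPM. Provisional symbols, pseudogenes and segments of immunoglobulins and T cell receptors were left out of the ranking. Among the 15 largest falls were the fat cell genes Lep, Adipoq, Retn, Cidec and Plin1, and among the 15 largest rises were the pigment genes Oca2 and Pmel, the matrix genes Acan, Ltbp2 and Tnn and the positional gene Hoxb13. In 379 genes (2.7%) the 2 groups did not overlap at all, and in 285 of these (2.03%) every vitiligo_ABX library lay below every vitiligo library. The count of calls was sensitive to which libraries entered. It was 535 without Vitiligo000, Vitiligo260 and Vitiligo261, 2248 without VitiligoABX001 to VitiligoABX003, 344 without VitiligoABX004 to VitiligoABX006, 2803 without Vitiligo001 alone and 129 without the 7 libraries that held over 10 CPM of gut and pancreas transcripts, which leaves 3 vitiligo libraries. The replicate numbers of the labels were not shown to pair libraries, and 155 genes were called in a fit with the number as a block. In 990 of the 1837 genes (295 higher, 695 lower) the call was kept in every one of the 15 fits that left out a single library. It was kept in 223 genes (31 higher, 192 lower) in all 3 fits that left out 3 libraries of a group.

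**Figure D1:**
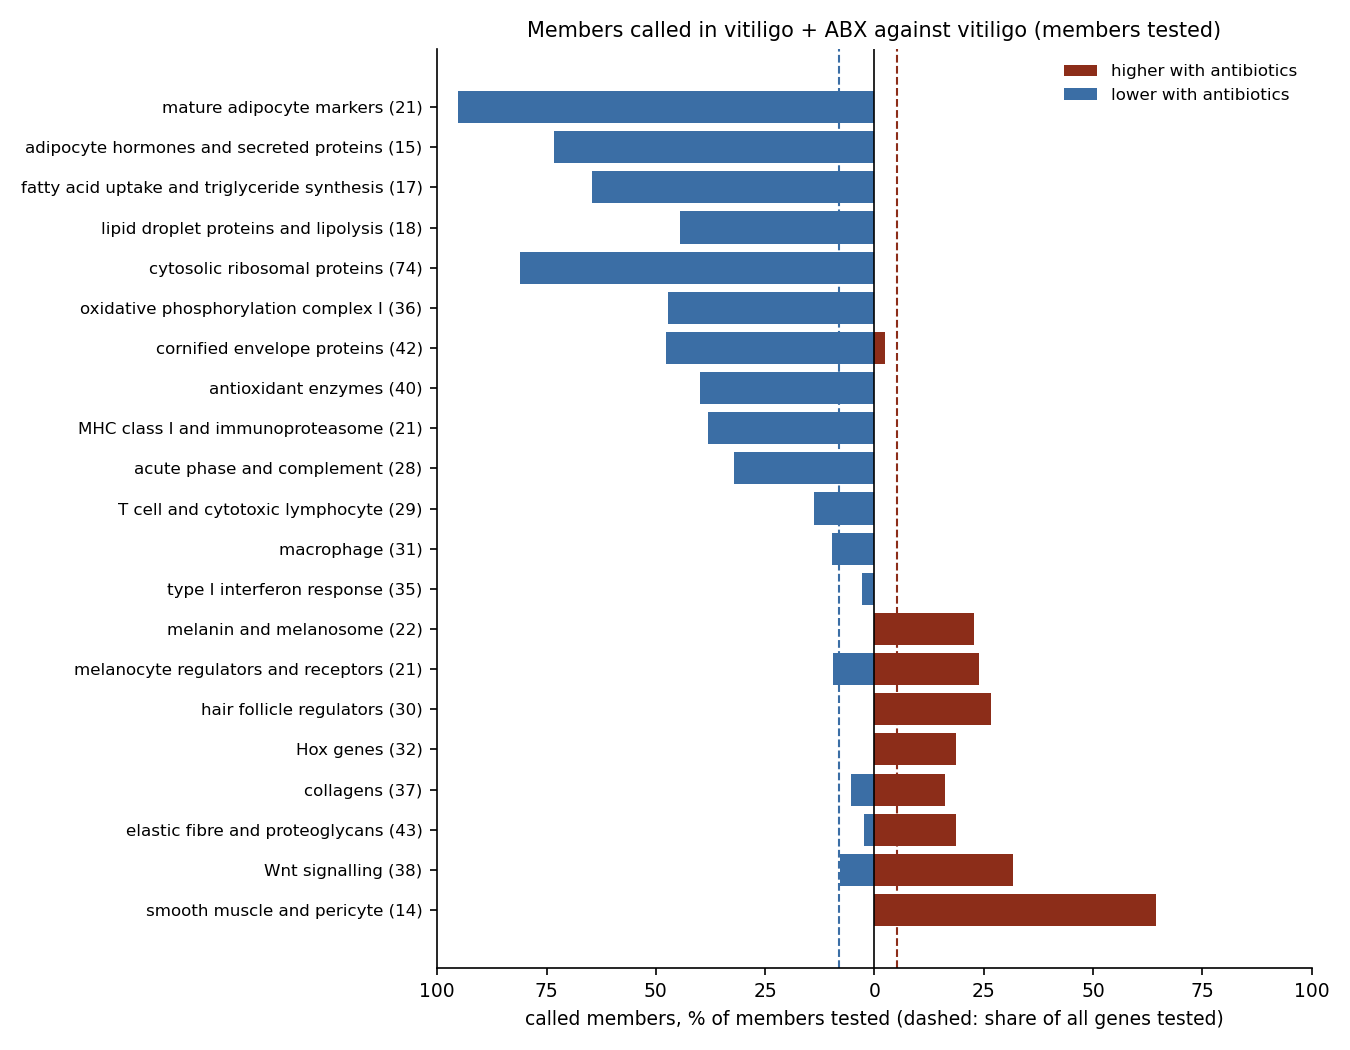
Share of the tested members of 21 gene lists that were called higher (red, right) or lower (blue, left) in vitiligo_ABX than in vitiligo, in percent of members tested (number in brackets). Dashed lines mark the share of all genes tested, 5.06% higher and 8.05% lower. Adipocyte, ribosomal protein and complex I lists extend far left of the line, and the smooth muscle list extends farthest right.

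Mature fat cell markers were lower in ABX-treated induced mice with 1 exception that was not called. Of 21 mature adipocyte markers 20 were called lower and 0 higher (median log2 difference -2.79), and in 19 of the 21 no vitiligo_ABX library reached the lowest vitiligo library. The summed level of these 21 genes ran from 685 to 1679 CPM with ABX and from 3388 to 8464 CPM without it. All 3 fits that left out 3 libraries of a group also called 20 of the 21, and 11 were called without the gut-transcript libraries. In bulk skin, fewer cells of a type and less RNA per cell cannot be told apart. The lists of fat genes share some members.

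Among the secreted products of adipocytes, 11 of 15 were lower and 0 higher (median -2.13). Lep, which encodes the satiety hormone leptin, had lowest, median and highest values of 0.186, 0.394 and 3.08 CPM in the 6 vitiligo_ABX libraries and 29.9, 50.9 and 176 CPM in the 9 vitiligo libraries. The groups were far apart, with Vitiligo000, Vitiligo260 and Vitiligo261 the 3 highest libraries of all and VitiligoABX003 the highest of the ABX group (log2 difference -6.39 ± 0.68, adjusted p = 1.41e-05). Adipoq, which encodes adiponectin, had 5.57, 12.3 and 48.4 CPM with ABX against 156, 321 and 778 CPM (log2 difference -4.37 ± 0.54, adjusted p = 6.18e-05), again with no overlap and with VitiligoABX002 and VitiligoABX003 highest of their group. Retn, the gene of resistin, fell by a similar amount (log2 difference -4.09 ± 0.56, adjusted p = 0.000186, medians 3.52 against 125 CPM). Rbp4, a carrier of retinol in blood, was lower in every vitiligo_ABX library (log2 difference -3.68 ± 0.42, adjusted p = 2.59e-05). Hp, which encodes the haemoglobin-binding protein haptoglobin, ranged over 1.85 to 9.65 CPM with ABX and 34.5 to 409 CPM without (log2 difference -4.83 ± 0.60, adjusted p = 6.6e-05). In this list 9 were lower without the 3 outlying vitiligo libraries, 8 without VitiligoABX004 to VitiligoABX006 and 6 without the gut-transcript libraries.

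The 250 bases before the start of Lep are shown because the gene had the second largest fall of any named here and because C/EBP alpha, a factor of adipocyte differentiation, is known to act on this promoter. The sequence is RefSeq's, on GRCm38.p6, chr6:29059971-29060220, plus strand, read 5′ to 3′, and capitals mark the palindrome TTGCGCAA, searched on both strands.
Lep: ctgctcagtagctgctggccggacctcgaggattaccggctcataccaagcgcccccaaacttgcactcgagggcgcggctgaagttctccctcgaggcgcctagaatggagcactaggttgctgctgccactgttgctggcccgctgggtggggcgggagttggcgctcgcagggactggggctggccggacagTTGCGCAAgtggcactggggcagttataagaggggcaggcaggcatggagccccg
This palindrome, which lies 55 bases before the start, occurred in 54 of 32851 such windows (0.164%). Of the 21 mature adipocyte markers 14 had a window, and Lep was the 1 that held the palindrome. The match is a description of letters and not evidence of a bound site.

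Of the transcription factors of adipocytes, 6 of 13 were lower and 0 higher (median -0.55). Pparg, the master regulator of fat cell differentiation, fell less than the hormones, with 22, 25.9 and 36.8 CPM in vitiligo_ABX libraries against 40.5, 55.0 and 83.1 CPM in vitiligo libraries (log2 difference -1.07 ± 0.17, adjusted p = 0.00053). No vitiligo_ABX library reached the lowest vitiligo library. Mlxipl, which encodes the carbohydrate sensor ChREBP, fell further (log2 difference -2.58 ± 0.32, adjusted p = 6.6e-05), as did Thrsp, a lipogenic gene induced by thyroid hormone (log2 difference -3.95 ± 0.50, adjusted p = 7.53e-05). Nr1h3, the gene of the sterol receptor LXR alpha, also fell (log2 difference -1.46 ± 0.24, adjusted p = 0.00087). There were 5 lower without the 3 outlying vitiligo libraries, 4 without VitiligoABX004 to VitiligoABX006 and 2 without the gut-transcript libraries.

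Of 18 lipid droplet and lipolysis genes 8 were lower and 0 higher, and in 8 no vitiligo_ABX library reached the lowest vitiligo library. Plin1, which coats the droplet, had 4.80, 8.84 and 47.3 CPM with ABX and 162, 211 and 352 CPM without (log2 difference -3.86 ± 0.48, adjusted p = 6.22e-05). Every vitiligo_ABX library was below the vitiligo range, with VitiligoABX003 the nearest to it. Plin4, another droplet coat protein (log2 difference -2.70 ± 0.28, adjusted p = 1.19e-05), Cidec, which fuses droplets (log2 difference -3.92 ± 0.47, adjusted p = 5.5e-05), and the lipases Lipe (log2 difference -2.58 ± 0.26, adjusted p = 1.19e-05) and Pnpla2 (log2 difference -1.74 ± 0.21, adjusted p = 4.52e-05) fell as well. Of 17 genes of fatty acid uptake and triglyceride synthesis 11 were lower and 0 higher (median -1.21). Lpl, which frees fatty acids from circulating lipoproteins, had 60.3, 96.1 and 149 CPM against 326, 753 and 1371 CPM (log2 difference -3.04 ± 0.29, adjusted p = 1.16e-05). Acsl1, which activates fatty acids (log2 difference -1.74 ± 0.17, adjusted p = 1.16e-05), Agpat2, which acylates lysophosphatidic acid (log2 difference -1.38 ± 0.12, adjusted p = 9.71e-06), and the fatty acid carrier Fabp4 (log2 difference -2.13 ± 0.22, adjusted p = 1.2e-05) fell. Further large falls were those of Car3, an adipocyte carbonic anhydrase (medians 59.8 against 1486 CPM, -3.90 ± 0.48), Mrap, an accessory protein of melanocortin receptors (-3.79 ± 0.42), Tshr, the thyrotropin receptor (-3.77 ± 0.46), and Nnat, a small membrane protein (-4.33 ± 0.69). Without the gut-transcript libraries 4 droplet and 4 uptake genes were lower, and the other 2 group leave-outs gave 8 and 10.

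Enzymes that make fatty acids moved less, with 3 of 17 lower and 1 higher (median -0.07). Scd1, the stearoyl-CoA desaturase abundant in sebaceous glands, fell from a median of 12484 to 5093 CPM (log2 difference -1.10 ± 0.17, adjusted p = 0.000655). Fads2, a desaturase of polyunsaturated fatty acids, rose (log2 difference 0.78 ± 0.14, adjusted p = 0.00197), and its groups did not overlap (54.9 to 71.8 CPM with ABX, 24.3 to 48.8 CPM without). Of 20 sebaceous gland genes 3 were lower and 0 higher, and of 24 cholesterol synthesis enzymes 2 were lower and 1 higher, Idi1 (log2 difference 0.66 ± 0.16, adjusted p = 0.0146). Of 13 brown and beige fat genes 1 was higher and 1 lower. The cholesterol and brown fat counts were near the shares of all genes (5.06% higher, 8.05% lower). Without VitiligoABX004 to VitiligoABX006 the synthesis enzymes had 1 lower and the cholesterol enzymes 0 in either direction, and without the gut-transcript libraries both had 0. Synthesis enzymes had 5 lower without VitiligoABX003 alone, sebaceous genes 2 higher without Vitiligo062, and cholesterol enzymes 1 lower without VitiligoABX005.

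**Figure D2:**
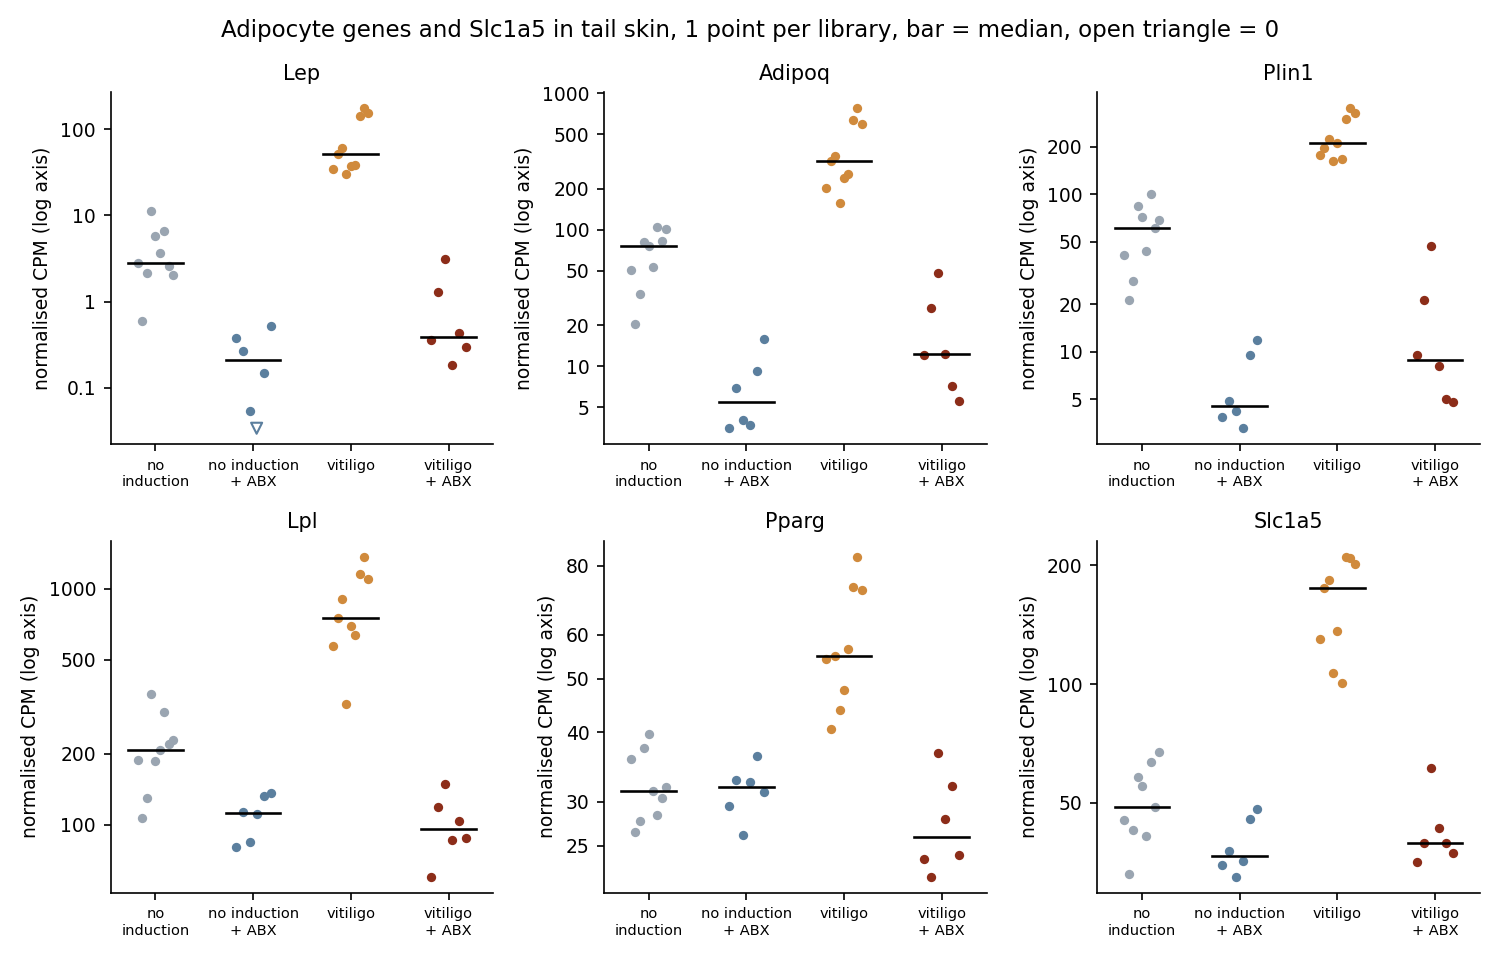
Normalised CPM (log axis) of 5 adipocyte genes and the amino acid transporter Slc1a5 in each library of 4 groups, with the bar at the median. In all 6 genes the vitiligo_ABX libraries lie below every vitiligo library, for Lep at 0.186 to 3.08 against 29.9 to 176 CPM.

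A minority of pigment genes was called higher with ABX. Of 22 genes of melanin synthesis and the melanosome 5 were called higher and 0 lower, and the median log2 difference of the list was 0.12. Leaving out single libraries gave 4 to 8 members higher, with 8 without Vitiligo001, and 1 lower without Vitiligo063 or Vitiligo001. Without the 3 outlying vitiligo libraries 0 members were called, without VitiligoABX004 to VitiligoABX006 1 was higher, without VitiligoABX001 to VitiligoABX003 0 were higher and 1 lower, and without the gut-transcript libraries 0 were called. Dct, which encodes dopachrome tautomerase, had values of 28.9, 36.3 and 58.7 CPM in the vitiligo_ABX libraries and 3.33, 8.61 and 28.1 CPM in the vitiligo libraries (log2 difference 1.53 ± 0.40, adjusted p = 0.0177). The groups did not overlap, but 3 vitiligo libraries, 001, 062 and 063, came close to the lowest vitiligo_ABX library, at 23.9 to 28.1 CPM against 28.9 CPM. Tyrp1, which encodes a melanosomal oxidase, had 26.8, 32.3 and 57.8 CPM against 2.11, 7.49 and 23 CPM (log2 difference 1.67 ± 0.43, adjusted p = 0.017) with the same 3 vitiligo libraries highest. Pmel, whose product forms the fibrils on which melanin is laid down, had 23.1, 35.6 and 69.8 CPM against 2.64, 6.86 and 27.3 CPM (log2 difference 1.78 ± 0.45, adjusted p = 0.0144). Here Vitiligo062 and Vitiligo001 overlapped the lower end of the ABX group. Mlph, which links melanosomes to myosin, rose by less (log2 difference 0.52 ± 0.12, adjusted p = 0.0104). Oca2, a melanosomal anion channel, was also called (log2 difference 2.01 ± 0.58, adjusted p = 0.0295), at 0.711 to 6.01 CPM against 0 to 1.34 CPM, and lost the call without VitiligoABX003 (adjusted p = 0.0835), VitiligoABX005 (0.0501) or Vitiligo260 (0.054).

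Tyr, which encodes tyrosinase, the first enzyme of melanin synthesis, had 10.1, 16.1 and 18.6 CPM with ABX and 1.34, 6.30 and 20.8 CPM without, and was not called (log2 difference 1.02 ± 0.43, adjusted p = 0.126). Its highest library was Vitiligo001, and without that library Tyr was called (adjusted p = 0.0188). Mlana, a melanosomal antigen, was not called (log2 difference 0.35 ± 0.50, adjusted p = 0.679), nor was Mitf, the melanocyte master factor, which other skin cells transcribe too (log2 difference 0.16 ± 0.16, adjusted p = 0.528), nor Kit, the stem cell factor receptor shared with mast cells (log2 difference 0.14 ± 0.10, adjusted p = 0.383). Pmel, Tyrp1 and Dct kept their calls when any 1 library was left out. None of them was called when Vitiligo000, Vitiligo260 and Vitiligo261 (adjusted p 0.0845 to 0.112), VitiligoABX001 to VitiligoABX003 (0.0924 to 0.105) or VitiligoABX004 to VitiligoABX006 (0.0576 to 0.081) were left out together.

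The 250 bases before the starts of Tyrp1, Dct and Tyr are shown because these 3 genes of 1 pathway had medians higher with ABX and because MITF is known to bind the E-box CATGTG in pigment gene promoters. Sequences are RefSeq's on GRCm38.p6, on the strand of the gene, 5′ to 3′. Capitals mark CATGTG or its reverse complement CACATG, a form of the general E-box CANNTG.
Tyrp1 (chr4:80833963-80834212, plus strand): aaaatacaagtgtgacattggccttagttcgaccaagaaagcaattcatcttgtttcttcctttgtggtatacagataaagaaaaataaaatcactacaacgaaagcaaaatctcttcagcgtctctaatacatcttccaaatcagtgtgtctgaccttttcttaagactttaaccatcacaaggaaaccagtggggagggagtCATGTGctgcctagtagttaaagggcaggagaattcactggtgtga
Dct (chr14:118052247-118052496, minus strand): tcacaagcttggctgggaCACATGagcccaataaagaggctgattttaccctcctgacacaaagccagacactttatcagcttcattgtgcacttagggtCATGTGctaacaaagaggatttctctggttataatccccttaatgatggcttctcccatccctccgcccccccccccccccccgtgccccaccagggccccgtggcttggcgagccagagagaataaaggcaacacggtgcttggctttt
Tyr (chr7:87493513-87493762, minus strand): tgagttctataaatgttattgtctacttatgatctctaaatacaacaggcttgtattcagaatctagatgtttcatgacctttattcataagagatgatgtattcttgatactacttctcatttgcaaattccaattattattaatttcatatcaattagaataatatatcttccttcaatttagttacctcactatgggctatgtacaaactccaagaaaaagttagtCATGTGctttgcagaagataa
The match lay 46 bases before the start in Tyrp1 and 21 bases in Tyr, and Dct had 2 matches, 232 and 150 bases before its start. Of all 32851 windows 4025 (12.3%) held it. Of the 25 listed pigment genes 20 had a window and 7 of these held the hexamer (35%). Pmel and Mlana had no window in the table.

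Among 21 regulators and receptors of melanocytes 5 were higher and 2 lower (median 0.29). Ednrb, the endothelin receptor that melanoblasts need and that vessels also carry, had 53.2, 68.9 and 101 CPM against 17.2, 27.1 and 44.1 CPM (log2 difference 1.3 ± 0.20, adjusted p = 0.000483). The groups did not overlap, and VitiligoABX004 and VitiligoABX006 were the 2 highest libraries. Its ligand Edn3 rose too (log2 difference 1.18 ± 0.27, adjusted p = 0.00817), as did the secreted Wnt modulator Sfrp2 (log2 difference 1.18 ± 0.27, adjusted p = 0.00937). Single leave-outs gave 3 members higher without VitiligoABX004 or VitiligoABX005 and 8 without VitiligoABX003 or Vitiligo001. The count lower fell to 0 without VitiligoABX001. Without the 3 outlying vitiligo libraries 1 was higher, and without VitiligoABX004 to VitiligoABX006 or the gut-transcript libraries 0 were called.

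**Figure D3:**
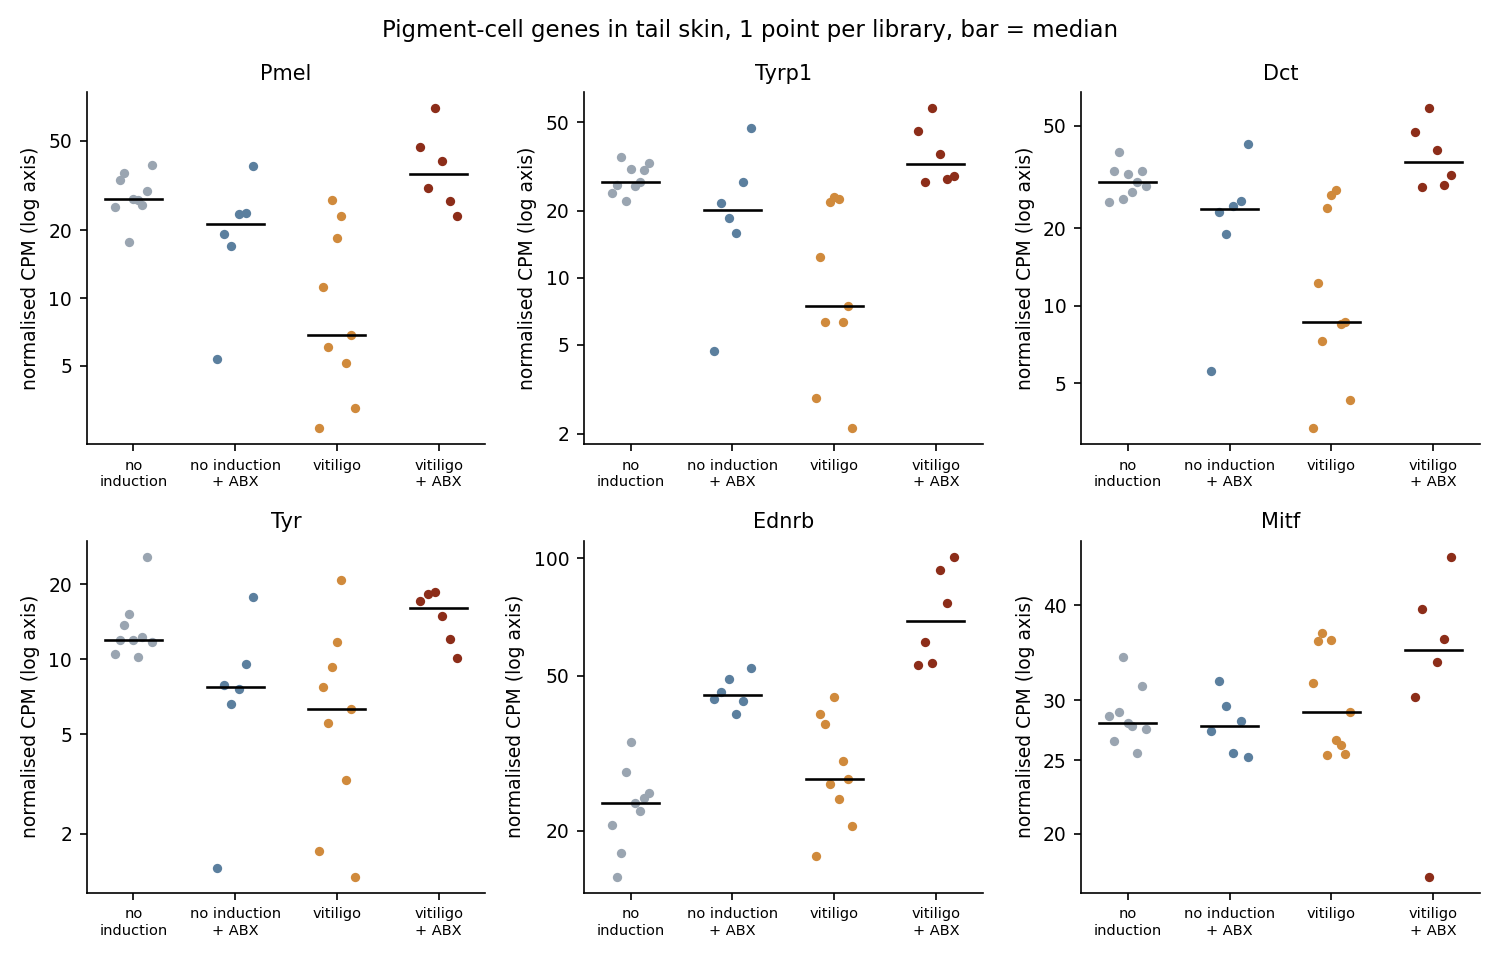
Normalised CPM (log axis) of 6 pigment-cell genes in each library of 4 groups, with the bar at the median. For Dct and Tyrp1 all 6 vitiligo_ABX libraries lie above the 9 vitiligo libraries, which spread from 3.33 to 28.1 and from 2.11 to 23 CPM, whereas the groups overlap in Tyr and Mitf.

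Part of the genes of the upper epidermis were called lower with ABX. Of 42 cornified envelope proteins, which form the dead outer shell of skin, 20 were lower and 1 higher (median -0.88). Of 10 suprabasal keratins 4 were lower and 0 higher (median -0.25), and of 22 basal keratinocyte genes 3 were higher (5.06% of all genes were) and 0 lower. No test compared the layers. Krt10, the main suprabasal keratin, had 4145, 4498 and 6947 CPM with ABX and 6255, 8854 and 14121 CPM without (log2 difference -0.82 ± 0.18, adjusted p = 0.00713), with the top of the ABX range inside the vitiligo range. Krt2 (log2 difference -1.12 ± 0.20, adjusted p = 0.00152), Krt78 (log2 difference -1.03 ± 0.21, adjusted p = 0.00459) and Krt24 (log2 difference -0.96 ± 0.20, adjusted p = 0.00464) fell by similar amounts. Krtdap, a secreted marker of keratinocyte differentiation, had 391, 571 and 804 CPM against 785, 1322 and 1914 CPM (log2 difference -1.10 ± 0.19, adjusted p = 0.00144). The late cornified envelope genes Lce1l (-1.41 ± 0.26), Lce1g (-1.30 ± 0.24) and Lce1c (-1.29 ± 0.24) fell together, and as near copies of each other they could share reads. Of 39 barrier enzymes and junction genes 7 were lower and 1 higher, among them Klk5, a protease of shedding (log2 difference -0.81 ± 0.16, adjusted p = 0.00322). Among basal genes Sox9, a factor of the hair follicle stem cell compartment, rose (log2 difference 0.81 ± 0.21, adjusted p = 0.0159), as did Itga3, which anchors the basal layer (log2 difference 0.54 ± 0.14, adjusted p = 0.0223). Without VitiligoABX004 to VitiligoABX006, and also without the gut-transcript libraries, 0 genes of the envelope, suprabasal, barrier and basal lists were called. Leaving out VitiligoABX001 to VitiligoABX003 instead gave 29 envelope, 4 suprabasal and 22 barrier genes lower, with 1 envelope and 1 basal gene higher. Without the 3 outlying vitiligo libraries 11 envelope, 1 suprabasal and 2 barrier genes were lower, and 0 basal genes were called. Single leave-outs moved the barrier count from 2 (without VitiligoABX004 or VitiligoABX005) to 13 (without VitiligoABX002) and the basal count from 2 (without VitiligoABX001) to 8 (without Vitiligo062), and without Vitiligo001 there were 4 barrier genes higher.

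Antimicrobial proteins of the WFDC family fell beyond the spread of the vitiligo group. Of 23 stress keratins and antimicrobial genes 5 were lower and 2 higher. Wfdc12 had 8.85, 13.2 and 28.2 CPM with ABX and 42.8, 75.4 and 253 CPM without (log2 difference -2.65 ± 0.40, adjusted p = 0.000403), Wfdc18 had 132, 169 and 227 CPM against 302, 412 and 1260 CPM (log2 difference -1.73 ± 0.32, adjusted p = 0.00202), and Wfdc21 fell as well (log2 difference -1.65 ± 0.24, adjusted p = 0.00038). None of these 3 genes overlapped between groups. Saa1, an acute phase apolipoprotein with antimicrobial action, fell with overlap (log2 difference -1.90 ± 0.45, adjusted p = 0.0105). Of 27 genes that sense microbes 2 were lower (8.05% of all genes were), including Pycard, the inflammasome adaptor (log2 difference -0.53 ± 0.12, adjusted p = 0.0104). Of 15 cytokine genes of the epidermis and of type 17 or type 2 responses 1 was higher and 1 lower (5.06% and 8.05% of all genes were). The lower one was Il18, an epidermal cytokine matured by the inflammasome (log2 difference -0.85 ± 0.19, adjusted p = 0.00678). Il17a and Reg3g, which respond to microbes, did not pass the count filter and were not tested in the main fit. They reached at most 1.71 and 0.42 CPM in any of the 15 libraries. The stress and antimicrobial list had 3 lower without the 3 outlying vitiligo libraries or the gut-transcript libraries and 2 without VitiligoABX004 to VitiligoABX006, with 0 higher in each, and 0 higher without VitiligoABX001 alone. The microbe sensing and cytokine lists had 0 called in those 3 fits.

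Hair follicle genes gave a mixed picture. Of 30 follicle regulators 8 were higher and 0 lower (median 0.48). Gli1 (log2 difference 0.73 ± 0.14, adjusted p = 0.00261) and Ptch1 (log2 difference 0.52 ± 0.12, adjusted p = 0.00898), both targets of hedgehog signalling, rose, and so did the ligand Shh itself (log2 difference 1.16 ± 0.30, adjusted p = 0.0179, 2.07 to 3.72 CPM against 0.619 to 3 CPM). Vdr, the vitamin D receptor, which hair cycling needs, rose (log2 difference 0.63 ± 0.17, adjusted p = 0.0198). Of 25 hair and inner root sheath keratins 3 were higher and 2 lower, and of 46 keratin-associated proteins, which cross-link hair keratins, 9 were higher and 2 lower (median 0.82). Krt75, a companion layer keratin, had 281, 360.5 and 459 CPM against 85.4, 195 and 260.5 CPM (log2 difference 0.98 ± 0.23, adjusted p = 0.0113) with no overlap. Krt36, a keratin of filiform papillae and nail, moved the other way (log2 difference -1.27 ± 0.33, adjusted p = 0.0185), as did Krtap13 (log2 difference -1.64 ± 0.37, adjusted p = 0.00815), while Krtap4-7 rose (log2 difference 1.38 ± 0.32, adjusted p = 0.00893). Keratin-associated genes are near copies of each other, so their separate values are uncertain. These counts rested on single libraries, since follicle regulators higher ran from 4 (without VitiligoABX004, VitiligoABX005 or VitiligoABX006) to 19 (without Vitiligo001), hair keratins from 1 (without VitiligoABX001, VitiligoABX002 or VitiligoABX006) to 13 (without Vitiligo001) and keratin-associated proteins from 3 (without VitiligoABX006) to 17 (without Vitiligo063). Keratin-associated proteins had 4 lower without Vitiligo001. Without VitiligoABX004 to VitiligoABX006 or the gut-transcript libraries 0 genes of these 3 lists were called, and without the 3 outlying vitiligo libraries 2 follicle regulators were.

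Genes of antigen presentation and T cells were lower where they were called, and mast cell genes were higher in part. Of 21 genes of MHC class I presentation and the immunoproteasome 8 were lower and 0 higher (median -0.24). H2-K1, a classical class I heavy chain, had 184, 216 and 303 CPM with ABX and 251, 455 and 640 CPM without (log2 difference -0.96 ± 0.18, adjusted p = 0.00221). Its light chain B2m (log2 difference -0.95 ± 0.22, adjusted p = 0.00902) and its transactivator Nlrc5 (log2 difference -1.18 ± 0.25, adjusted p = 0.00481) fell too. The H2-K1 groups overlapped, and related class I genes could share its reads. Of 13 class II genes 4 were lower (median -0.45), among them H2-Aa (log2 difference -0.71 ± 0.21, adjusted p = 0.032), and the count ran from 0 (without VitiligoABX001, VitiligoABX002 or VitiligoABX004) to 6 (without Vitiligo001). Of 35 type I interferon response genes 1 was lower (8.05% of all genes were). It was Ifi27 (log2 difference -1.09 ± 0.17, adjusted p = 0.000627), whose groups did not overlap. MHC class I genes had 2 lower without the 3 outlying vitiligo libraries and 0 without VitiligoABX004 to VitiligoABX006 or without the gut-transcript libraries, and class II genes had 0 in all 3 fits. A fit without VitiligoABX001 to VitiligoABX003 had 7 class I and 0 class II genes lower.

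Of 29 T cell and cytotoxic lymphocyte genes 4 were lower and 0 higher, rising to 7 without Vitiligo062 or Vitiligo063. There was 1 without the 3 outlying vitiligo libraries, 1 without VitiligoABX001 to VitiligoABX003, and 0 without VitiligoABX004 to VitiligoABX006 or the gut-transcript libraries. Trbc1, a T cell receptor beta constant region, had 3.23, 4.21 and 5.22 CPM against 6.14, 8.17 and 17.9 CPM (log2 difference -1.18 ± 0.25, adjusted p = 0.0051), with no overlap. Cd3g, part of the T cell receptor complex (log2 difference -0.96 ± 0.25, adjusted p = 0.0169), and Zap70, its signalling kinase (log2 difference -1.05 ± 0.27, adjusted p = 0.0151), fell. Cd8a, which marks cytotoxic T cells, was not called (log2 difference -0.89 ± 0.50, adjusted p = 0.248) and ran over 0.143 to 0.873 CPM with ABX and 0.324 to 2.01 CPM without. The interferon gamma induced chemokines Cxcl9 (log2 difference -1.10 ± 0.71, adjusted p = 0.321) and Cxcl10 (log2 difference -0.04 ± 0.54, adjusted p = 0.971) were not called, and in both VitiligoABX003 stood far above the other 5 ABX libraries (8.59 and 5.46 CPM). Without VitiligoABX003 Cxcl9 was called lower (adjusted p = 0.00435). Ifng did not pass the count filter and reached at most 0.273 CPM.

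Of 31 macrophage genes 3 were lower (8.05% of all genes were) and 0 higher, and 8 were lower without Vitiligo001 and 1 without the gut-transcript libraries. Itgad, which encodes an integrin alpha chain of macrophages, had the largest fall of any named gene, with 0.0513, 0.282 and 0.455 CPM against 5.26, 9.82 and 106 CPM (log2 difference -6.45 ± 0.91, adjusted p = 0.000217). All 9 vitiligo libraries were above 5 CPM, Vitiligo260 and Vitiligo000 were highest, and no vitiligo_ABX library reached 1 CPM. Cd209f, a lectin of resident macrophages, fell (log2 difference -1.49 ± 0.29, adjusted p = 0.0028). Ighm, the heavy chain of immunoglobulin M, fell (log2 difference -1.33 ± 0.23, adjusted p = 0.00138). Mast cell genes went up in part, with 3 of 18 higher and 1 lower (median 0.62), led by the tryptase Tpsab1 (log2 difference 1.10 ± 0.26, adjusted p = 0.0105), and single leave-outs gave 1 (without VitiligoABX005) to 8 (without Vitiligo001), while VitiligoABX004 to VitiligoABX006 or the gut-transcript libraries left out gave 0 higher. Of 28 acute phase and complement genes 9 were lower and 0 higher, or 14 without Vitiligo001, 5 without the 3 outlying vitiligo libraries, 4 without VitiligoABX004 to VitiligoABX006 and 3 without the gut-transcript libraries. C3, the central complement component, had 44.4, 57.7 and 67.8 CPM against 131, 397 and 582 CPM (log2 difference -2.72 ± 0.28, adjusted p = 1.31e-05), and the groups did not overlap. Adipocytes also make C3, haptoglobin and several other members of that list, the summed adipocyte markers fell in the same libraries, and their part in these results was not tested.

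Antioxidant genes were lower where they moved. Of 40 antioxidant enzymes 16 were lower and 0 higher (median -0.16). There were 6 lower without the 3 outlying vitiligo libraries, 2 without VitiligoABX004 to VitiligoABX006 and 1 without the gut-transcript libraries. A fit without VitiligoABX001 to VitiligoABX003 had 15 lower and 1 higher. Gpx3, the secreted glutathione peroxidase, had 97.0, 136 and 294 CPM with ABX and 218, 609 and 967 CPM without (log2 difference -1.89 ± 0.30, adjusted p = 0.000796). Gpx1, the cytosolic form, had 212, 246 and 260.9 CPM against 288, 328 and 501 CPM (log2 difference -0.62 ± 0.11, adjusted p = 0.00202), and its groups did not overlap. Sod1, the cytosolic superoxide dismutase (log2 difference -0.64 ± 0.11, adjusted p = 0.00126), and Cat, catalase (log2 difference -0.56 ± 0.12, adjusted p = 0.00542), fell, while Sod2, the mitochondrial dismutase, was not called (log2 difference -0.03 ± 0.09, adjusted p = 0.859). Pon1, a lactonase of lipoproteins, summed to 3 counts over the 6 vitiligo_ABX libraries and 476 counts over the 9 vitiligo libraries, so it was close to absent with ABX and no fold is given. Of 46 NRF2 target and glutathione genes 10 were lower and 5 higher, and the classical targets Hmox1 (log2 difference -0.08 ± 0.19, adjusted p = 0.807) and Nqo1 (log2 difference 0.13 ± 0.10, adjusted p = 0.411) were not called. Gsta2, a glutathione transferase, fell (log2 difference -1.05 ± 0.19, adjusted p = 0.00205). Without VitiligoABX004 alone the NRF2 list had 5 lower, and it had 3 without the 3 outlying vitiligo libraries, 1 without VitiligoABX004 to VitiligoABX006 and 0 without the gut-transcript libraries. The count higher fell to 2 without VitiligoABX001 and to 0 in the last 2 of these fits.

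Of 34 genes whose products make oxidants 6 were lower and 0 higher, with 4 lower without VitiligoABX004 to VitiligoABX006 and 1 without the gut-transcript libraries. Aoc3, an amine oxidase that releases hydrogen peroxide and is abundant in fat and vessels, had 21.3, 30.6 and 51.5 CPM against 78.5, 135 and 215 CPM (log2 difference -2.03 ± 0.22, adjusted p = 1.81e-05). Cyp2e1, a cytochrome of alcohol and fatty acid metabolism, fell from a median of 169 to 4.50 CPM (log2 difference -4.25 ± 0.55, adjusted p = 0.000102). Mapk14, which encodes p38 alpha, was not called (log2 difference -0.11 ± 0.07, adjusted p = 0.357). Of 35 genes of p38 stress signalling 1 was higher and 1 lower (5.06% and 8.05% of all genes were), with 3 higher without Vitiligo001 and 3 lower without VitiligoABX003. Dusp1, a phosphatase that switches off p38 and is itself an immediate early gene, was the lower one, with 22.9, 25 and 44.5 CPM against 27.0, 90.2 and 219.5 CPM (log2 difference -1.91 ± 0.39, adjusted p = 0.00454). Several of these genes are strongly expressed in adipocytes, whose summed markers fell in the same libraries, and the part of adipocytes in these results was not tested.

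Genes of energy production and of ribosomes were lower in large shares by small amounts. Of 74 cytosolic ribosomal protein genes 60 were lower and 0 higher (median -0.45), and in 15 the groups did not overlap. Rps12, of the small subunit, had 850.2, 938 and 1153 CPM with ABX and 1202, 1633 and 2251 CPM without (log2 difference -0.78 ± 0.13, adjusted p = 0.00116), and Rpl17, of the large subunit, fell alike (log2 difference -0.67 ± 0.12, adjusted p = 0.00145). Of 36 subunits of respiratory complex I 17 were lower, of complex II 2 of 4, of complex III 5 of 9, of complex IV 9 of 14 and of complex V 5 of 17, with none higher. Ndufa4 fell with no overlap between groups (log2 difference -0.66 ± 0.13, adjusted p = 0.00305). Of 13 genes of the mitochondrial genome 1 was lower (8.05% of all genes were). These are short transcripts, and log2 differences rose with gene length over all genes, from a median of -0.15 in the shortest 20% of genes to 0.09 in the longest. With an offset for length and GC content 43 ribosomal genes and 10 of complex I were lower, with 1 of complex II, 0 of complex III, 2 of complex IV, 3 of complex V and 0 of the mitochondrial genome. The same offset gave 9 higher and 1 lower for mast cell genes, 18 and 1 for keratin-associated proteins, and 2 and 17 for cornified envelope proteins. Without VitiligoABX003 alone 28 of complex I and 11 of complex V were lower, and without VitiligoABX005 alone 2 of complex III and 4 of complex IV. Without VitiligoABX004 to VitiligoABX006 1 ribosomal gene and 0 of complexes I to V were called, and without the gut-transcript libraries 0 of either. Leaving out VitiligoABX001 to VitiligoABX003 instead gave 58 ribosomal genes and 29 of complex I lower. Without the 3 outlying vitiligo libraries 21 ribosomal genes, 6 of complex I, 1 of complex V and 0 of the other complexes were lower.

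Slc1a5, a glutamine transporter, had 35.4, 39.4 and 61.4 CPM with ABX against 101, 175 and 210.5 CPM without it in induced mice (log2 difference -1.91 ± 0.19, adjusted p = 1.16e-05), and 33.1, 48.7 and 67.4 CPM in no_induction libraries. Every vitiligo_ABX library was below every vitiligo library. Of 24 genes of the amino acid stress response 5 were higher and 2 lower, with Cbs, the first enzyme of transsulfuration, higher (log2 difference 0.65 ± 0.17, adjusted p = 0.0171), and 1 was higher without VitiligoABX001. Among 27 retinoid and alcohol dehydrogenases 7 were lower and 3 higher (0 higher without VitiligoABX004 or Vitiligo260), with Aldh1a1, which makes retinoic acid, at 2.52, 4.36 and 5.75 CPM against 13.3, 23 and 41.0 CPM (log2 difference -2.61 ± 0.28, adjusted p = 1.68e-05), and Adh6a falling too (log2 difference -1.96 ± 0.28, adjusted p = 0.00021). Of 21 genes of xenobiotic metabolism, the aryl hydrocarbon receptor and hippurate synthesis 7 were lower and 2 higher, led by the carboxylesterase Ces1d (log2 difference -1.39 ± 0.15, adjusted p = 1.68e-05). Glyat, the enzyme that makes hippuric acid, did not pass the count filter and reached at most 0.462 CPM. Of 19 clock genes 2 were lower (8.05% of all genes were), including Nr1d1, which encodes the repressor REV-ERB alpha (log2 difference -0.73 ± 0.16, adjusted p = 0.00762). Amino acid stress genes had 0 higher, and clock genes 0 called, without the 3 outlying vitiligo libraries or the gut-transcript libraries. Dehydrogenases had 4 lower without the 3 outlying vitiligo libraries or VitiligoABX004 to VitiligoABX006 and 3 without the gut-transcript libraries, and 6 higher without Vitiligo001. Xenobiotic genes had 4, 6 and 1 lower in those 3 group leave-outs.

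Matrix, contractile and positional genes rose in part. Of 14 smooth muscle and pericyte genes 9 were higher and 0 lower (median 0.70). Acta2, smooth muscle actin, had 226, 371 and 579 CPM with ABX and 121, 155 and 314 CPM without (log2 difference 1.17 ± 0.21, adjusted p = 0.00185). The groups overlapped through a single vitiligo library, 063, at 314 CPM. Smtn, smoothelin, had 113, 126 and 157 CPM against 55.9, 77.2 and 88.9 CPM (log2 difference 0.81 ± 0.11, adjusted p = 0.000209) with no overlap, and was called in all 3 fits that left out 3 libraries of a group. Tagln rose alike (log2 difference 1.03 ± 0.20, adjusted p = 0.00296). Of 22 endothelial genes 3 were higher and 0 lower. Without VitiligoABX004 or VitiligoABX006 alone 4 smooth muscle genes were called, and without 006 no endothelial gene was. Without VitiligoABX001 there were 6 endothelial genes. Smooth muscle genes higher numbered 3 without the 3 outlying vitiligo libraries, 1 without VitiligoABX004 to VitiligoABX006 and 0 without the gut-transcript libraries, and endothelial genes 0 in all 3. Leaving out VitiligoABX001 to VitiligoABX003 gave 8 smooth muscle and 9 endothelial genes higher.

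Of 32 Hox genes, which hold the body position of fibroblasts and follicles, 6 were higher and 0 lower. Hoxb13, a marker of the tail end of the body, had 13.8, 23.3 and 34.0 CPM against 0.324, 3.72 and 9.62 CPM (log2 difference 2.53 ± 0.46, adjusted p = 0.00181). All vitiligo_ABX libraries were above all vitiligo libraries, and among vitiligo libraries the level ranged widely, lowest in 000 and 047. Hoxb7 rose by less and without overlap (log2 difference 0.56 ± 0.12, adjusted p = 0.00513), and Hoxb9 rose (log2 difference 0.57 ± 0.14, adjusted p = 0.0109). Where along the tail each sample was taken is not given in the labels. Without VitiligoABX004 to VitiligoABX006 or the gut-transcript libraries 0 of the 32 were called, and without the 3 outlying vitiligo libraries 2 were higher. Without Vitiligo001 there were 11 higher and 2 lower.

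Of 37 collagens 6 were higher and 2 lower, and of 43 elastic fibre and proteoglycan genes 8 were higher and 1 lower. Eln, elastin, which was chosen after its values were seen, had 88.8, 173 and 279.7 CPM with ABX and 54.2, 80.5 and 105 CPM without (log2 difference 1.10 ± 0.20, adjusted p = 0.00167). Col11a1, a fibrillar collagen (log2 difference 1.34 ± 0.26, adjusted p = 0.00276), and Col4a4, a basement membrane collagen (log2 difference 0.67 ± 0.13, adjusted p = 0.00237), rose, while Col6a6 fell (log2 difference -1.29 ± 0.32, adjusted p = 0.0135). Acan, the cartilage proteoglycan aggrecan (log2 difference 1.92 ± 0.36, adjusted p = 0.00237), Ltbp2, a microfibril protein (log2 difference 2.07 ± 0.36, adjusted p = 0.00133), and Tnn, tenascin N (log2 difference 1.75 ± 0.31, adjusted p = 0.00155), had some of the largest rises. Thbs1, a matricellular protein, rose with no overlap (log2 difference 0.93 ± 0.15, adjusted p = 0.000823). Of 17 fibroblast markers 2 were lower and 0 higher, one of them Dpt, dermatopontin (log2 difference -1.5 ± 0.27, adjusted p = 0.00168). Collagens higher numbered 2 without the 3 outlying vitiligo libraries, 1 without VitiligoABX004 to VitiligoABX006 and 0 without the gut-transcript libraries. Elastic fibre and proteoglycan genes had 8 higher and 5 lower without Vitiligo001, 1 higher and 2 lower without VitiligoABX004 to VitiligoABX006, and 0 higher and 1 lower without the gut-transcript libraries.

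Of 34 TGF beta and BMP family genes 5 were higher and 0 lower. Gdf10, a ligand of the family, had 36.6, 61.7 and 101 CPM against 10.6, 13.5 and 28 CPM (log2 difference 2.05 ± 0.24, adjusted p = 4.17e-05). The groups did not overlap, and VitiligoABX004 to VitiligoABX006 were above the other 3. Inhba, a subunit of activin (log2 difference 1.11 ± 0.18, adjusted p = 0.000887), Bmp6 (log2 difference 0.94 ± 0.16, adjusted p = 0.00142) and Mstn, myostatin (log2 difference 2.03 ± 0.37, adjusted p = 0.00204), rose. Of 38 Wnt signalling genes 12 were higher and 3 lower, with the receptors Fzd7 (log2 difference 0.69 ± 0.12, adjusted p = 0.00159) and Fzd1 (log2 difference 0.47 ± 0.08, adjusted p = 0.00167) higher and the agonist Rspo1 lower (log2 difference -0.86 ± 0.15, adjusted p = 0.0014). Caln1, a calcium-binding protein of the calmodulin family, had the largest rise of the genes ranked (log2 difference 3.83 ± 0.50, adjusted p = 0.000111), from 0 to 0.315 CPM to 0.624 to 3.44 CPM. Osr1, a transcription factor of connective tissue, rose too (log2 difference 1.88 ± 0.29, adjusted p = 0.000641). Without VitiligoABX004 to VitiligoABX006 the Wnt list had 1 gene higher and 2 lower, and the TGF beta list 1 higher. Without VitiligoABX004 or VitiligoABX005 alone 6 Wnt genes were higher, and without the 3 outlying vitiligo libraries 5. Without Vitiligo001 the TGF beta list had 5 higher and 3 lower. Without the gut-transcript libraries neither list had a gene higher.

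**Figure D4:**
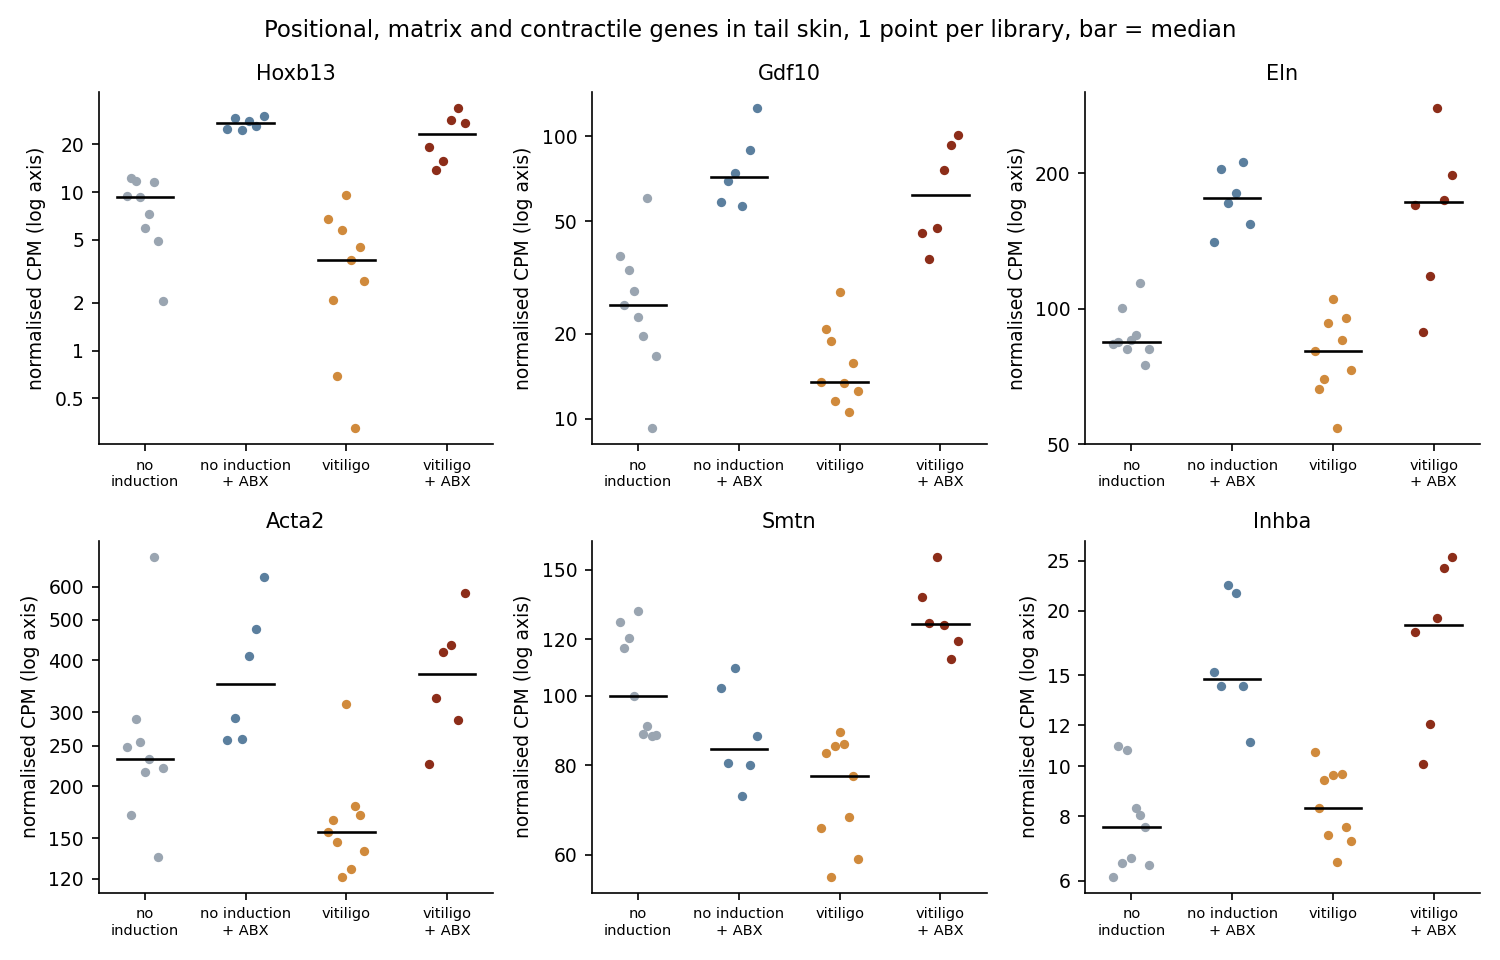
Normalised CPM (log axis) of 6 positional, matrix and contractile genes in each library of 4 groups, with the bar at the median. Hoxb13, Gdf10 and Smtn do not overlap between vitiligo_ABX and vitiligo, with Hoxb13 at 13.8 to 34.0 against 0.323 to 9.62 CPM.

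Whether ABX made the same difference without induction was tested as an interaction in 30 libraries. The uninduced comparison shares no library with the induced one. Of 14310 genes 1639 (11.5%) were called, 956 (6.68%) with the log2 difference higher in induced mice and 683 (4.77%) with it lower. The count was 764 without the 12 of these 30 libraries that held over 10 CPM of gut and pancreas transcripts (the gut-transcript libraries of the interaction), and edgeR called 0 genes with the replicate number as a block, where 1586 had an unadjusted p under 0.05 (DESeq2 called 2038 and limma-voom 1697 without the block). Whether the replicate numbers pair libraries with the uninduced groups was not checked. The no_induction libraries 011 and 012 stood apart, with 229 and 197 CPM of Y-linked transcripts against at most 0.315 CPM in the other 28 libraries and 178 and 25.3 CPM of gut and pancreas transcripts, and without them 1810 genes were called. Hair shaft genes had the highest shares of calls described here. Of 46 keratin-associated proteins 40 were called higher in the interaction and 0 lower (median 2.55), and of 25 hair and inner root sheath keratins 22 and 0 (median 2.17), or 14 and 13 higher without the gut-transcript libraries. Their mean level, as mean log2(CPM + 1) of the members, was lower with ABX in uninduced mice, 5.35 against 7.16 for keratin-associated proteins, while in induced mice it was 7 with ABX against 6.42 without. Interactions were ranked under the same limits as rises and falls. Krtap5-3, with the largest positive interaction of the genes ranked (4 ± 0.66, adjusted p = 0.000501), ran over 12.1 to 69.6 CPM without and 0.787 to 8.87 CPM with ABX in uninduced mice, and over 7.19 to 39.7 CPM and 17.1 to 60.0 CPM in induced mice. Its neighbours in rank were Krtap5-4 (3.79 ± 0.61), Krtap5-2 (3.70 ± 0.62), the nicotinic receptor subunit Chrna4 (3.63 ± 0.64) and the lysozyme relative Lyg2 (3.50 ± 0.72).

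Type I interferon response genes gave the opposite sign. Of 35 genes 17 were called lower in the interaction and 0 higher (median -1.43), but 1 was lower without the gut-transcript libraries. Their mean level was 2.51 in no_induction, 3.34 in no_induction_ABX, 3.12 in vitiligo and 3.06 in vitiligo_ABX libraries. Apol9a, an interferon-induced gene, ranged over 0.355 to 1.18 CPM in no_induction and 0.798 to 12.5 CPM in no_induction_ABX libraries, and over 0.637 to 4.07 CPM and 0.568 to 4.95 CPM in the induced groups (interaction -2.79 ± 0.82, adjusted p = 0.0245), and was not called without the gut-transcript libraries (adjusted p = 0.078). Of 27 immediate early and heat shock genes 5 were called lower and 2 higher (median -0.23). Fos (-3.17 ± 0.86, adjusted p = 0.0166) and Dusp1 (-2.79 ± 0.55, adjusted p = 0.00199) had medians that were lower with ABX in induced mice and higher with ABX in uninduced mice. Depp1, a gene of fasting and FOXO activity (-2.96 ± 0.60), and Nnat were also among the largest negative interactions.

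The ABX difference of some fat genes was larger in induced mice. Of 21 mature adipocyte markers 6 were called lower in the interaction and 0 higher (median -0.76), with 1 lower without the gut-transcript libraries. Their summed level in uninduced mice was 997 to 2570 CPM without ABX and 584 to 897 CPM with it. Lep was not called in the interaction (-2.29 ± 1.34, adjusted p = 0.271), nor was Adipoq (-1.19 ± 0.64, adjusted p = 0.231). Nnat had the largest negative interaction of the genes ranked (-4.21 ± 0.80, adjusted p = 0.0015), being 0.351 to 1.5 CPM and 0.344 to 0.934 CPM in uninduced mice without and with ABX. Lpl (-2.10 ± 0.36, adjusted p = 0.000708), Pparg (-1.06 ± 0.20, adjusted p = 0.00103) and Slc1a5 (-1.56 ± 0.24, adjusted p = 0.000397) also had a called negative interaction. In uninduced mice the Pparg medians were 31.4 CPM without and 31.9 CPM with ABX.

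Over all genes 6.68% were called higher in the interaction and 4.77% lower. Of 24 genes of melanin and the melanosome 5 were called higher in the interaction and 1 lower (median 0.61), and of 21 melanocyte regulators 1 and 2. Pmel (2.22 ± 0.57, adjusted p = 0.0117), Tyrp1 (1.99 ± 0.57, adjusted p = 0.0224) and Dct (1.91 ± 0.52, adjusted p = 0.016) were among those higher. In uninduced mice their medians were lower with ABX, a difference that was not tested alone. Dct was 25.2, 30.3 and 39.5 CPM in no_induction and 5.58, 23.7 and 42.7 CPM in no_induction_ABX libraries. For this gene the vitiligo_ABX libraries overlapped the uninduced range and the vitiligo libraries had the lowest median. The mean level of the melanin list was 3.84 in no_induction, 3.52 in no_induction_ABX, 3.46 in vitiligo and 3.89 in vitiligo_ABX libraries, so 2 groups were low. MHC class I genes also differed, with 11 of 21 called lower in the interaction (6 without the gut-transcript libraries), including H2-K1 (-0.97 ± 0.20, adjusted p = 0.00261). Of 34 Hox genes 8 were called higher in the interaction and 0 lower, of 38 Wnt genes 9 and 2, of 34 TGF beta and BMP genes 3 and 3, of 38 collagens 0 and 1, and of 43 elastic fibre and proteoglycan genes 0 and 3. Without the gut-transcript libraries of the interaction the melanin list had 6 higher and 0 lower, and the melanocyte regulators 0 and 1. Hox genes then had 6 and 0, Wnt genes 7 and 0, and TGF beta and BMP genes 0 and 1. Collagens had 0 and 1, and elastic fibre and proteoglycan genes 0 and 3. In the fit of all 30 libraries Hoxb7 (0.54 ± 0.15, adjusted p = 0.0227), Bmp6 (0.73 ± 0.22, adjusted p = 0.0281) and Smtn (1.03 ± 0.17, adjusted p = 0.000458) were called. Hoxb13 (0.79 ± 0.56, adjusted p = 0.376), Gdf10 (0.54 ± 0.41, adjusted p = 0.415) and Eln (0.07 ± 0.23, adjusted p = 0.887) were not, and their medians were higher with ABX in both settings.

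**Figure D5:**
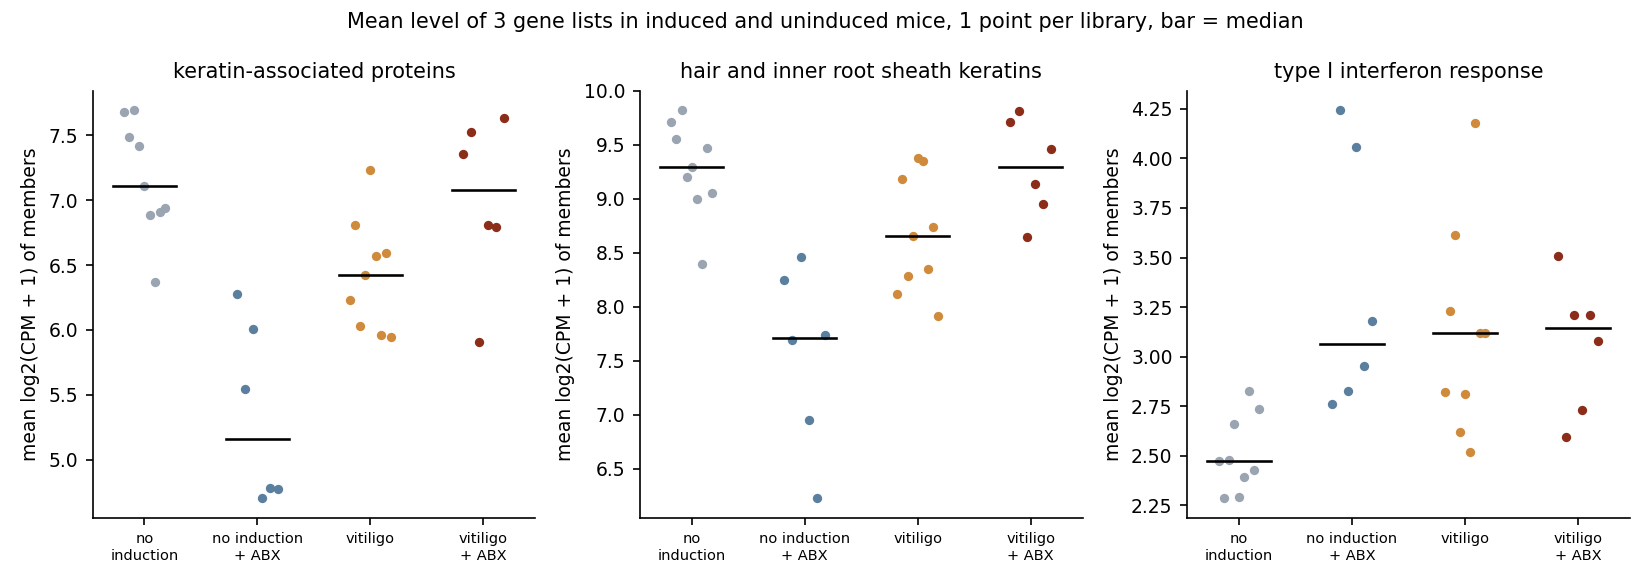
Mean log2(CPM + 1) of the members of 3 gene lists in each library of 4 groups, with the bar at the median. Keratin-associated proteins and hair keratins are lowest in no_induction_ABX libraries, and type I interferon response genes are lowest in no_induction libraries (means 2.51 against 3.06 to 3.34 in the other groups).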

How the data were processed

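Bulk RNA sequencing of mouse tail skin was analysed in 15 libraries, 6 labelled vitiligo induction with ABX and 9 labelled vitiligo induction alone, with 15 uninduced libraries added for the interaction. Per the labels' protocols, messenger RNA from Trizol extracts was captured on oligo(dT) beads before library construction. The values the authors deposited are expected counts, which are estimated and not normalized, with genes in rows. Tools listed in the submitters' processing notes, with no roles, are HISAT2, Bowtie2 (2.2.8), DESeq2 and StringTie (1.3.1). Genome build, counter and strandedness are not given in the sources used here, so overlapping and antisense genes could not be told apart.

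Counts were rounded, 2 rows (1 incomplete and 1 without a gene symbol) were left out and 19218 genes were used. Differences were tested with edgeR 4.0.16 in R 4.3.3 (TMM factors, default expression filter, robust quasi-likelihood F test, two-sided), and a gene was called at a Benjamini-Hochberg adjusted p under 0.05. SE came from the F statistic. The main comparison was fitted on the 15 libraries, and the interaction on 30. CPM used TMM-scaled totals of all 38 libraries. The edgeR fits were checked on simulated data. Within vitiligo_ABX and within vitiligo the closest pair of libraries differed by 20.9 chi-square per degree of freedom, so none of these 15 libraries was a copy of another in its group. The uninduced libraries were not checked for copies. Each library was counted as 1 replicate, and the check for copies cannot show that libraries came from separate mice.

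The members and gene lists were chosen with earlier results of these data known. Genes named are the 15 largest rises and falls with a group mean of at least 1 CPM and a symbol that is not provisional, up to 4 called members per list with the smallest p (the 2 with the smallest p where fewer were called), a set of 23 pigment, immune, fat and redox genes, and the 5 largest interactions each way. Not all genes the rule picks are named, 1 of them is not reported here, and Eln is named outside it, chosen after its values were seen. Promoter sequences are from RefSeq on GRCm38.p6. Labels share replicate numbers 001 and 006 between vitiligo_ABX and vitiligo. Same-numbered libraries correlated at 0.09 and 0.17 in their deviations from group means, within the range of other pairs (-0.42 to 0.41), so the numbers were not used to pair. Numbers shared with or between the uninduced groups were not checked in this way. Alternatives were RLE factors, no or a stricter filter, DESeq2 1.42.0, limma-voom (limma 3.58.1), all 38 libraries, a block, a fold limit of 2 and leaving libraries out. Group leave-outs and a length and GC offset, from a table of GENCODE M21 genes, were chosen after seeing the data.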

Additional observations from a re-analysis of the deposited data

Results flagged for a closer look

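Among the reported genes, 10 groups held 1 library far from the others of its group, out of 258 groups checked, and chance alone gives about 1 in 20. In VitiligoABX003 Thrsp was high at 7.38 CPM, Cxcl9 at 8.59 CPM, Cxcl10 at 5.46 CPM, Nqo1 at 16.0 CPM and Slc1a5 at 61.4 CPM. In VitiligoABX006 Dusp1 was high at 44.5 CPM and Fos at 32.9 CPM. In Vitiligo063 the contractile genes Acta2 (314 CPM) and Tagln (201 CPM) were high, and in Vitiligo039 Krt78 was low at 56.9 CPM.

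For 42 reported genes the ABX difference differed between induced and uninduced mice in edgeR's interaction test (adjusted p under 0.05), and each value here is the log2 difference in induced mice minus that in uninduced mice. Among fat and sebaceous genes these were Nnat -4.21, Lpl -2.10, Rbp4 -1.77, Plin4 -1.72, Nr1h3 -1.35, Pnpla2 -1.13, Pparg -1.06, Scd1 -0.92, Acsl1 -0.80, Agpat2 -0.60 and Fads2 0.80. Among pigment genes they were Oca2 2.47, Pmel 2.22, Tyrp1 1.99 and Dct 1.91. Among hair and keratinocyte genes they were Krtap5-3 4.0, Krtap5-4 3.79, Krtap5-2 3.70, Krtap4-7 2.81, Krt75 1.58, Vdr 0.92 and Itga3 0.56. Immune genes with such a difference were C3 -1.63, B2m -1.20, H2-K1 -0.97, Ifi27 -0.93, H2-Aa -0.85 and Apol9a -2.79. Redox, amino acid and immediate early genes were Fos -3.17, Dusp1 -2.79, Slc1a5 -1.57, Aoc3 -1.15, Sod1 -0.69, Cat -0.66 and Cbs 1.42. The others were Chrna4 3.63, Lyg2 3.50, Smtn 1.04, Bmp6 0.73, Hoxb7 0.54, Dpt -1.31 and Depp1 -2.96.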

How the results depend on the processing

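RLE factors, either filter, DESeq2, limma-voom and the length and GC offset each kept the 2 counts of called genes within 1.5 times of 1837 and 1639. With all 38 libraries in 1 fit 2811 genes were called (1206 higher). At a fold of at least 2 there were 461. Leaving out single libraries gave 1183 (409 higher, 774 lower, without VitiligoABX004) to 2803 calls (1346 higher, 1457 lower, without Vitiligo001), with 1215 (419 higher) without VitiligoABX005. Without the 7 libraries holding over 10 CPM of gut and pancreas transcripts 129 were called (16 higher, 113 lower), and in the interaction, without 12 such libraries, 764 (536 higher, 228 lower). Leaving out Vitiligo000, Vitiligo260 and Vitiligo261 gave 535 (169 higher, 366 lower) and VitiligoABX004 to VitiligoABX006 gave 344 (73 higher, 271 lower), both chosen after seeing the data. Leaving out VitiligoABX001 to VitiligoABX003 instead, also chosen after seeing the data, gave 2248 (845 higher, 1403 lower). Fewer libraries entered all of these fits, and why their counts differ was not tested. With the replicate block 155 genes were called (64 higher, 91 lower) with 1 residual degree of freedom, and in the interaction edgeR called 0 genes (0 higher, 0 lower), with 1586 at an unadjusted p under 0.05, against 2038 by DESeq2 and 1697 by limma-voom, both without the block. Y-linked transcripts set apart 2 uninduced libraries, without which the interaction called 1810 genes, and none of the 15 induced ones. Of the values of reported genes and lists under alternatives, 7243 stayed on their side of the threshold or within 1.5 times, 310 lost their call, 5 gained one and 1031 list counts moved by more, and no called gene reported here changed sign.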

Other observations

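A few lists and genes fall outside the groups described above. Of 38 cell cycle genes 3 were higher with ABX (5.06% of all genes were) and 0 lower, and without Vitiligo001 alone 19 were higher. Trf, which encodes the iron carrier transferrin, had values of 94.2 to 308 CPM with ABX and 598 to 1392 CPM without it, with no overlap (log2 difference -2.53 ± 0.27 SE). Pla2g5, a secreted phospholipase, was lower in every vitiligo_ABX library (1.96 to 4.82 CPM against 13.3 to 35.1 CPM). Myl1, a fast skeletal muscle myosin light chain, was at most 0.607 CPM with ABX and at least 1.61 CPM without it, while of 10 tested skeletal muscle genes it was the 1 called lower and 0 were higher. Il1r2, the decoy receptor of interleukin 1, fell with overlap between the groups (-0.95 ± 0.17, adjusted p = 0.00155).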
